A study of Mus musculus with 23 samples.

Results

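The 10 genes below, which mark intestinal stem cells, were followed through every group of the study: *Lgr5*, *Olfm4*, *Ascl2*, *Smoc2*, *Mex3a*, *Tnfrsf19*, *Prom1*, *Cdca7*, *Rgmb* and *Slc12a2*. They were taken by name, are 10 of the 22350 genes quantified, and all 10 were present in each of the 3 data sets. The 23 libraries comprised RNA-seq of small intestinal organoids, Ribo-seq of organoids, and Ribo-seq of mouse small intestine. RNA-seq covered 2 WT lines and 2 *Rptor* fl/fl lines, each with 2 technical libraries that were summed, and 3 stem cell enriched (SCe) organoid replicates. Ribo-seq, which counts ribosome-protected fragments (footprints), covered 3 *Rptor* fl/fl and 3 SCe organoid replicates, and 3 WT and 3 *Rptor* fl/fl mice.

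All animals, the donors of the organoids included, were of the C57BL/6 strain and 8 to 12 weeks old by the study's methods. WT and SCe organoids carried VillinCre.ERT2 and RPL22.HA, an HA-tagged ribosomal protein through which ribosomes were pulled down before footprinting. *Rptor* fl/fl organoids of the RNA-seq carried VillinCre.ERT2 without the tag, so the tag and the genotype cannot be told apart there, while those of the Ribo-seq carried both. Villin drives the Cre throughout the gut epithelium. SCe is a medium and not a genotype: 10 μM CHIR 99021, an inhibitor of GSK3, and 1.5 mM valproic acid, an inhibitor of histone deacetylases, were added. *Rptor* fl/fl and SCe organoids therefore differed in both genotype and medium, and these cannot be told apart. Mice of 8 to 12 weeks carried Lgr5Cre.ERT2 and RPL22.HA, with or without *Rptor* fl/fl, so that the Cre was driven by the promoter of a gene studied here. The labels call *Rptor* fl/fl organoids and all mice untreated, whereas the study's methods describe tamoxifen, given to mice 24 h before collection. The study calls the WT and *Rptor* fl/fl lines of the RNA-seq biological replicates. For the other organoid replicates nothing states separate animals, and p-values then measure only the spread between these samples.

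Stem cells at the base of the crypts, called crypt base columnar cells, divide continuously and renew the epithelium. They are held in that state by Wnt signalling, which R-spondins amplify by binding LGR receptors, and several of the genes followed here are Wnt targets. *Rptor* encodes Raptor, the subunit that defines mTORC1, a kinase complex that couples nutrients to protein synthesis. In whole cultures or tissue, fewer stem cells and less RNA per stem cell cannot be told apart.

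On mm10 and GENCODE vM21, *Lgr5* lies on chromosome 10 from 115450311 to 115587780 (minus strand), *Tnfrsf19* on chromosome 14 from 60963875 to 61046490 (minus strand) and *Rgmb* on chromosome 17 from 15803188 to 15831039 (minus strand). *Prom1* lies on chromosome 5 from 43993620 to 44102032 (minus strand) and *Slc12a2* on chromosome 18. *Olfm4* lies on chromosome 14 from 79984081 to 80023139 (plus strand) and *Smoc2* on chromosome 17 from 14279506 to 14404790 (plus strand). *Ascl2* lies on chromosome 7 from 142966829 to 142969264 (minus strand), *Mex3a* on chromosome 3 from 88532395 to 88541396 (plus strand) and *Cdca7* on chromosome 2 from 72476159 to 72486893 (plus strand).

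Among the members, LGR5 is the R-spondin receptor that marks these cells, TNFRSF19 (TROY) is a receptor of the tumour necrosis factor family, and RGMB is a co-receptor for bone morphogenetic proteins. PROM1 (CD133) is a membrane protein of surface protrusions, and SLC12A2 carries sodium, potassium and chloride into the cell. OLFM4 and SMOC2 are secreted, the former a glycoprotein and the latter a matrix-associated calcium-binding protein. ASCL2 is a transcription factor that maintains the stem cell programme, MEX3A binds RNA, and CDCA7 is a nuclear protein of dividing cells.

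Promoters, 250 bases before to 50 after a start site, were read from RefSeq on GRCm38.p6, which held 11 promoters for 7 of the members. *Lgr5*, *Smoc2* and *Slc12a2* are not among them. They are shown for 4 genes: *Olfm4* and *Ascl2*, which were lower in SCe than in WT organoids, *Tnfrsf19*, which was higher, and *Prom1*, whose reads divide between start sites. Capitals mark ATCAAAG, a core sequence bound by TCF and LEF factors, searched as ATCAAAG and as CTTTGAT so that both strands were covered. The sequence was found in 1 of the 11 promoters, which belongs to *Tnfrsf19* and holds it from position −202 relative to the start site, and in 3.73% of all 32851 promoters. The other *Tnfrsf19* promoter, which lies further upstream, is not shown and does not hold the sequence. A match is only a match of letters, and its absence says only that these letters are not in this window.
Olfm4 (chr14:80000052-80000351, plus strand): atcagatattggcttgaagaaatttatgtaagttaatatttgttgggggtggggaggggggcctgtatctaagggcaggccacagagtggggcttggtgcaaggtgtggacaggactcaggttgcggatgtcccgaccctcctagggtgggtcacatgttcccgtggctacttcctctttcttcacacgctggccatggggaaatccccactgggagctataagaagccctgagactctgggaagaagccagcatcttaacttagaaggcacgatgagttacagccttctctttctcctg
Ascl2 (chr7:142969215-142969514, minus strand): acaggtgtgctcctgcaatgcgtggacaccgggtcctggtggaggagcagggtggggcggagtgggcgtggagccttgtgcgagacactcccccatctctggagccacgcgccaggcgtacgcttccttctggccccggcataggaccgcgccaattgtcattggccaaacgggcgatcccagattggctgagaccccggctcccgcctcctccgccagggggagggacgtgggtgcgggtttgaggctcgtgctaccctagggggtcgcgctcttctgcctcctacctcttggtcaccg
Tnfrsf19 (chr14:61037938-61038237, minus strand): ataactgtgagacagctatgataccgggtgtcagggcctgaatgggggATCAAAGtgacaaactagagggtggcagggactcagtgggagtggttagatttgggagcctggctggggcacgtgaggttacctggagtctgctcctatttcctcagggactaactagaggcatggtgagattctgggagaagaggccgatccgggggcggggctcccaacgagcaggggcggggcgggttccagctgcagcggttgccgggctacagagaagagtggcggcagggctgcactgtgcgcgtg
Prom1, outer start (chr5:44101687-44101986, minus strand): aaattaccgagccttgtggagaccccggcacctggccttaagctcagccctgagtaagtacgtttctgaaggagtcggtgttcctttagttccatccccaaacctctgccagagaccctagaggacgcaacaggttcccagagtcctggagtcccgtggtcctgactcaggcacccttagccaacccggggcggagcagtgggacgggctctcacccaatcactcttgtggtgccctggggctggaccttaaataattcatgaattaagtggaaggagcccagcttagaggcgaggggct
Prom1, inner start (chr5:44094719-44095018, minus strand): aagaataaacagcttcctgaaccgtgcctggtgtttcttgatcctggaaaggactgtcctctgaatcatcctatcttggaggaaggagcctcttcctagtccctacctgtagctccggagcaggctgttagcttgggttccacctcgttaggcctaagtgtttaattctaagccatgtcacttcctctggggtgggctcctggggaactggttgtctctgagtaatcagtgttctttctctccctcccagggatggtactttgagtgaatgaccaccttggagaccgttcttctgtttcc

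Between 27439459 and 67598878 reads were assigned per organoid line in RNA-seq, between 1106178 and 8257457 per organoid Ribo-seq library and between 772077 and 8238388 per mouse library. Levels are given as CPM, counts scaled to library size, after TMM scaling within each data set, and folds and p-values come from edgeR's quasi-likelihood test with Benjamini-Hochberg adjustment over all genes tested at 0.05. A gene that passed is described as higher or lower, and a gene that did not is given by its values. Technical libraries of a line were close, with a median ratio of 1.05 between the larger and the smaller CPM over 40 pairs and a largest ratio of 1.28, for *Olfm4*. *Rptor* mRNA averaged 15.1 CPM in *Rptor* fl/fl lines, 49.7 CPM in WT and 56.2 CPM in SCe organoids, and was 3.28-fold lower in *Rptor* fl/fl than in WT (adjusted p = 0.00516). *Rptor* footprints did not separate the organoid Ribo-seq groups, averaging 17.3 CPM where the label is *Rptor* fl/fl and 26.0 CPM in SCe (log2 fold change −0.53, adjusted p = 0.318). In mice they were at 32.5, 34.2 and 36.7 CPM in *Rptor* fl/fl and 41.5, 39.5 and 44.5 in WT (−0.28, adjusted p = 0.15). Every direction drawn from those 2 data sets therefore rests on the labels.

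Several libraries stood apart. SCe replicate 1 of the RNA-seq had a summed level of 9 enterocyte genes of 249 CPM, against 6204.6 and 7255.3 in the other SCe replicates. The WT lines were at 7238.9 and 7896.0 CPM, so values without SCe replicate 1 rest on the SCe replicates near WT in these genes. SCe replicate 1 also had the highest level of 9 of the 10 members among SCe replicates. *Rptor* fl/fl mouse 1 had the highest footprint level of all 10 members among the *Rptor* fl/fl mice. Values without either library are given where they change a call or move a named value widely.

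The first question was how SCe medium, meant to enrich stem cells, moved the markers. *Olfm4* mRNA was 47.0-fold lower in SCe than in WT organoids and *Ascl2* 3.52-fold lower, whereas *Tnfrsf19* was 4.21-fold higher and *Prom1* 1.55-fold higher, and *Lgr5* did not pass the test. Of the 10 members, 2 were higher and 3 lower, a share close to that over all genes, since 42.3% of the 14925 genes tested passed, 22.4% higher and 19.9% lower. The median log2 fold change of the members was 0.10, beside 0.02 for all genes.

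Among the receptors, *Lgr5* was at 215 and 197 CPM in WT and 337, 222 and 219 CPM in SCe organoids. In CPM the SCe values were all above WT, 2 of them by little. Length-scaled levels overlapped, at 145, 76.1 and 78.1 in SCe and 81.7 and 74.1 in WT. The log2 fold change of *Lgr5* was 0.35 ± 0.22 (SE, 95% interval −0.20 to 0.91, adjusted p = 0.244), or 0.12 without SCe replicate 1 (adjusted p = 0.132). *Tnfrsf19* was at 28.2 and 21.6 CPM in WT and 183, 56.2 and 71.3 CPM in SCe, a log2 fold change of 2.07 ± 0.59 (adjusted p = 0.0418). Every SCe replicate lay above both WT lines, with replicate 1 far above the others, and without it the value was 1.38 (adjusted p = 0.00144). *Rgmb* was at 149 and 162 CPM in WT and 193, 100 and 100 CPM in SCe (−0.23 ± 0.32, adjusted p = 0.605). Its groups overlapped because of SCe replicate 1, without which *Rgmb* was lower in SCe (−0.61, adjusted p = 0.000709).

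The secreted markers lay on opposite sides of WT. *Olfm4* was at 2864 and 4432 CPM in WT and 135, 42.2 and 52.9 CPM in SCe organoids (−5.55 ± 0.62, adjusted p = 0.00351). The groups were far apart, also without SCe replicate 1 (−6.24, adjusted p = 0.000134). *Smoc2* was at 271 and 299 CPM in WT and 809, 434 and 418 CPM in SCe. All SCe values were above WT, but the wide spread left the change at 0.98 ± 0.33 (adjusted p = 0.0676), and without replicate 1 it passed at 0.60 (adjusted p = 0.0012), as it did in DESeq2 (0.97, adjusted p = 0.00737).

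In the nuclear and RNA-binding group, *Ascl2* was at 22.6 and 17.2 CPM in WT and 7.66, 4.02 and 5.14 CPM in SCe (−1.81 ± 0.30, adjusted p = 0.0093). *Cdca7* was at 161 and 177 CPM in WT and 115, 70.0 and 84.5 CPM in SCe (−0.89 ± 0.21, adjusted p = 0.0256). For both genes every SCe value was below every WT value. *Mex3a* was at 19.7 and 20.4 CPM in WT and 32.2, 13.0 and 14.3 CPM in SCe, so that its groups overlapped and its 95% interval ran from −1.1 to 1.1 (adjusted p = 0.998). Without SCe replicate 1 *Mex3a* was lower (−0.54, adjusted p = 0.00401).

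Of the membrane proteins, *Prom1* was at 247 and 274 CPM in WT and 405, 401 and 391 CPM in SCe (0.64 ± 0.08, adjusted p = 0.00443), and *Slc12a2* at 1266 and 1452 CPM in WT and 1476, 1595 and 1555 CPM in SCe (0.20 ± 0.10, adjusted p = 0.166). Without SCe replicate 1, 8 members passed, as did 9530 genes in all, against 6309 with it. Leaving out WT line 1 left only *Olfm4* past the threshold (*Ascl2*, *Tnfrsf19*, *Prom1* and *Cdca7* at adjusted p = 0.07, 0.16, 0.0512 and 0.1), and *Tnfrsf19* and *Cdca7* were also lost without WT line 2 (0.207 and 0.134) or SCe replicate 3 (0.0659 and 0.0825), with directions kept.

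**Figure D1:**
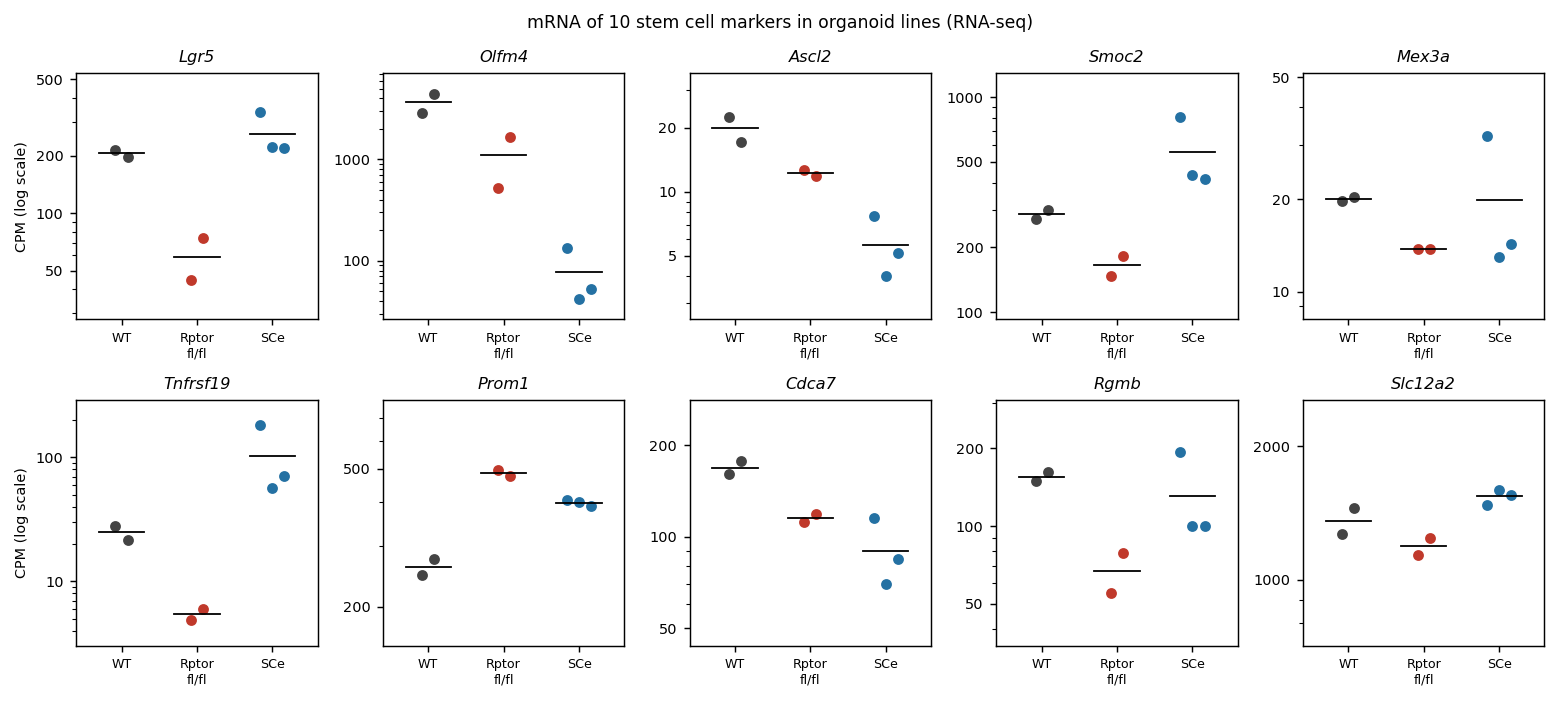
mRNA of the 10 markers in CPM on a log axis that differs between panels, 1 point per organoid line or replicate, with the mean as a bar. *Olfm4* falls from 2864 and 4432 CPM in WT to between 42.2 and 135 in SCe, while *Tnfrsf19* is above WT in SCe and below WT in *Rptor* fl/fl.

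Other genes of the same biology did not move as a block. Of 34 other genes of adult stem cells, 9 were higher and 4 lower (median 0.46). *Cd44* (2.27-fold) and *Rnf32* (2.25-fold) were higher and *Clca3b* (3.68-fold) and *Zbtb38* (2.64-fold) lower (adjusted p = 0.0025, 0.00315, 0.00424 and 0.00583). Of 20 genes of R-spondin and Wnt reception, 4 were higher and 4 lower (median −0.11), and the highest-ranking were *Lef1* (6.15) and *Tcf7* (1.24), both Wnt-responsive transcription factors (adjusted p = 0.00128 and 0.00127). The median of 15 proliferation genes was 0.12.

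Markers of other cell types moved beside the stem cell markers. Of 7 goblet cell genes, 6 were lower (median −3.31), including *Muc2* (−5.01), *Clca1* (−6.39), *Agr2* (−3.31) and *Fcgbp* (−2.16), and 5 of 7 enteroendocrine genes were lower (median −4.40). The 9 Paneth cell genes had a median of −1.64, and 1 of 9 enterocyte genes, *Alpi*, was lower (−2.51). The summed level of 6 stromal genes was 2.34 to 3.43 CPM in WT and 69.8 to 115 CPM in SCe, nearly all of it *Vim*, while *Col3a1* had no read in either group. Their part in the result was not tested.

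The second question was how the markers differed between *Rptor* fl/fl and WT organoids in ordinary medium. The genotype and the RPL22.HA tag cannot be told apart here. Most markers were lower in *Rptor* fl/fl. In *Rptor* fl/fl organoids, *Tnfrsf19* mRNA was 4.59-fold, *Lgr5* 3.48-fold and *Rgmb* 2.32-fold lower than in WT, with smaller decreases of *Smoc2*, *Ascl2*, *Mex3a* and *Cdca7*, and *Prom1* was 1.86-fold higher. Of the 10 members, 7 were lower and 1 higher, while 22.6% of the 14131 genes tested passed, 11.0% lower and 11.6% higher. The member median was −0.74, beside 0 for all genes, whose lower quartile was −0.23.

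Among the members that passed, the receptors had the largest decreases. *Lgr5* was at 215 and 197 CPM in WT and 44.4 and 73.9 CPM in *Rptor* fl/fl (−1.80 ± 0.25, adjusted p = 0.0173), *Tnfrsf19* at 4.84 and 5.98 CPM in *Rptor* fl/fl (−2.20 ± 0.19, adjusted p = 0.0101), and *Rgmb* at 55.1 and 78.4 CPM (−1.22 ± 0.18, adjusted p = 0.0183). None overlapped with WT. These 3 calls and that of *Prom1* held whichever line was left out.

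*Prom1* was the exception in direction, at 494 and 476 CPM in *Rptor* fl/fl against 247 and 274 CPM in WT (0.90 ± 0.08, adjusted p = 0.0107). *Slc12a2* was at 1136 and 1245 CPM in *Rptor* fl/fl and did not pass (−0.19 ± 0.11, 95% interval −0.48 to 0.10, adjusted p = 0.265). *Smoc2* was at 148 and 182 CPM (−0.79 ± 0.12, adjusted p = 0.0194). *Olfm4*, at 521 and 1680 CPM, was below both WT lines, but its *Rptor* fl/fl lines were far apart and the change of −1.73 ± 0.59 did not pass (adjusted p = 0.0997). Without *Rptor* fl/fl line 2 it passed at −2.79 (adjusted p = 0.0246).

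*Ascl2* was at 12.7 and 11.9 CPM in *Rptor* fl/fl (−0.70 ± 0.16, adjusted p = 0.0392), *Mex3a* at 13.8 CPM in both lines (−0.54 ± 0.08, adjusted p = 0.0186) and *Cdca7* at 112 and 119 CPM (−0.55 ± 0.07, adjusted p = 0.0165). All lay below both WT lines. *Mex3a* was lost whichever line was left out (adjusted p = 0.0509 to 0.109), *Ascl2* without WT line 1 or either *Rptor* fl/fl line (0.113, 0.095 and 0.127), and *Smoc2* and *Cdca7* without WT line 2 (0.0559 and 0.0575). With the 3 RNA-seq groups in 1 fit, only *Lgr5* and *Prom1* passed.

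Of the 34 other adult stem cell genes, 14 were lower and 2 higher (median −0.40), led by *Nav1* (−1.67), *Axin2*, a Wnt target that restrains the pathway (−1.11), *Hopx* (−1.02) and *Afap1l1* (−0.75). Genes of R-spondin and Wnt reception gave 2 higher and 2 lower of 19 tested (median 0.09). *Axin2*, which is in both lists, and *Tcf7* (−0.87) were lower, and *Fzd5* (0.41) and *Dvl1* (0.35) higher. Of 15 proliferation genes only *Pcna* passed (−0.32). Beside these, 7 of 9 Paneth cell genes were lower (median −1.87), among them *Lyz1* (−3.15) and *Defa22* (−3.57), and 5 of 7 goblet cell genes were higher (median 1.17), among them *Zg16* (2.40) and *Muc2* (1.55). Stromal genes summed to 1.45 to 3.11 CPM in *Rptor* fl/fl and 2.34 to 3.43 CPM in WT. The part of Paneth and goblet cells in the result was not tested.

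**Figure D2:**
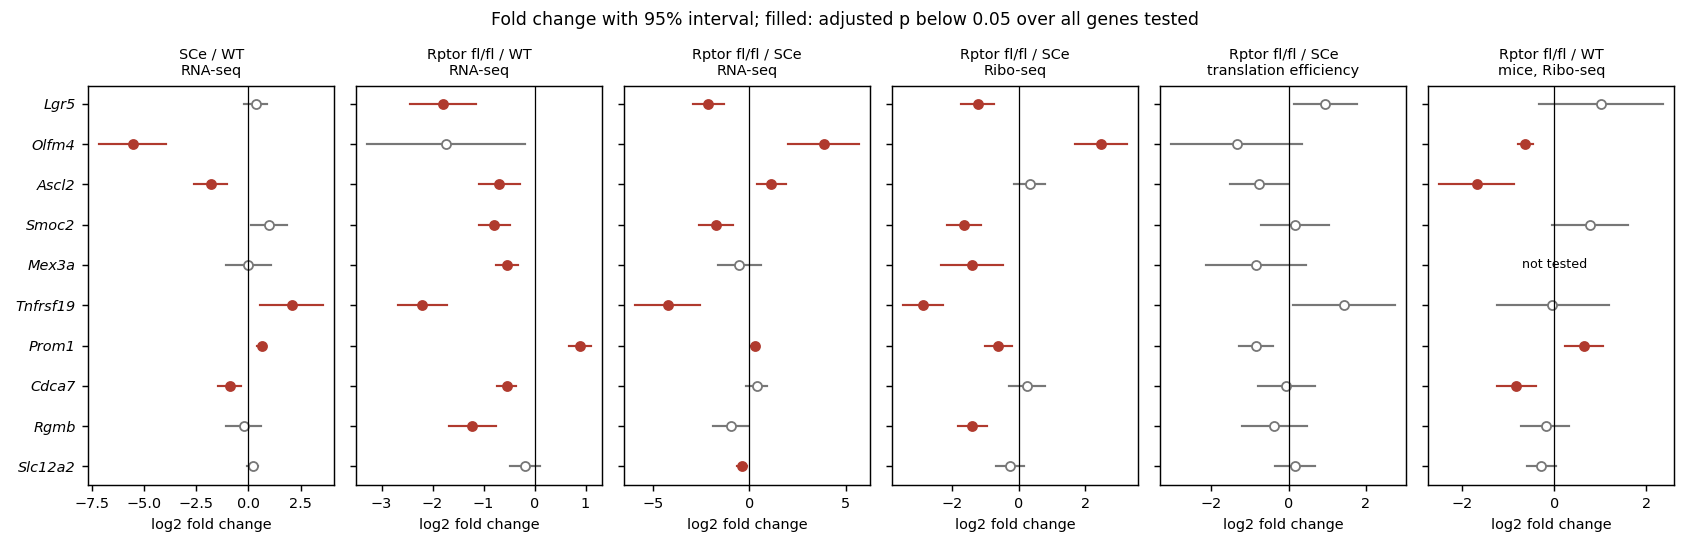
Log2 fold change (x axis, scale differing between panels) of each marker in the 6 comparisons, with its 95% interval. Filled points passed at 0.05 over all genes tested, 8 in *Rptor* fl/fl against WT organoids and none in translation efficiency.

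The third comparison set *Rptor* fl/fl against SCe organoids, the only organoid contrast whose labels occur in both assays. It shares its libraries with the comparisons above, so its mRNA values are not independent of them. In mRNA, 3 members were higher in *Rptor* fl/fl (*Olfm4*, *Ascl2* and *Prom1*) and 4 lower (*Lgr5*, *Smoc2*, *Tnfrsf19* and *Slc12a2*), while 42.7% of 15103 genes passed, 21.0% higher and 21.8% lower. Log2 fold changes were 3.85 ± 0.73 for *Olfm4*, 1.14 ± 0.29 for *Ascl2* and 0.28 ± 0.07 for *Prom1* (adjusted p = 0.0125, 0.0296 and 0.0325). They were −4.25 ± 0.66 for *Tnfrsf19*, −2.13 ± 0.32 for *Lgr5*, −1.75 ± 0.35 for *Smoc2* and −0.37 ± 0.10 for *Slc12a2* (adjusted p = 0.00689, 0.00656, 0.0147 and 0.0322). *Rgmb* (−0.97), *Mex3a* (−0.52) and *Cdca7* (0.37) did not pass (adjusted p = 0.0845, 0.382 and 0.221). Of these calls, *Lgr5* held whichever line was left out. It was the only member to pass without *Rptor* fl/fl line 2 (*Olfm4* 2.78, adjusted p = 0.0681), and with *Olfm4* without line 1 (4.46, adjusted p = 0.0327), while *Ascl2*, *Prom1* and *Slc12a2* were also lost without SCe replicate 2 or 3 (adjusted p = 0.0575 to 0.138). Without SCe replicate 1, 9 members passed, as did 9101 genes in all, against 6452 with it. *Tnfrsf19* was then at −3.56, *Olfm4* at 4.53, *Rgmb* at −0.59 and *Cdca7* at 0.58, the latter pair past the threshold (adjusted p = 0.027 and 0.00555), and *Mex3a* was at 0.02 (adjusted p = 0.91).

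Footprints gave the contrast of the same labels by the other assay, in *Rptor* fl/fl organoids that carried the tag. Those of the RNA-seq did not carry it. *Rptor* itself was at −1.89 in mRNA (adjusted p = 0.00105) and at −0.53 in footprints (adjusted p = 0.318). Footprints on *Olfm4* were 5.54-fold higher in the libraries labelled *Rptor* fl/fl than in SCe. Those on *Tnfrsf19*, *Smoc2*, *Rgmb*, *Mex3a*, *Lgr5* and *Prom1* were 7.27-, 3.11-, 2.63-, 2.63-, 2.35- and 1.52-fold lower. Of the 10 members, 1 was higher and 6 lower, while 16.5% of 10817 genes passed, 6.63% higher and 9.84% lower. The member median was −0.92, beside −0.02 for all genes.

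*Lgr5* was at 205, 206 and 212 CPM in the libraries labelled *Rptor* fl/fl against 377, 448 and 638 CPM in SCe (−1.23 ± 0.22, adjusted p = 0.00668). *Tnfrsf19* was at 17.1, 15.2 and 16.3 CPM against 77.4, 118 and 156 CPM (−2.86 ± 0.27, adjusted p = 0.000696). *Rgmb* was at 25, 26.6 and 24.8 CPM against 61.7, 82.8 and 58.6 CPM (−1.39 ± 0.19, adjusted p = 0.00288). The receptors were narrowly spread in the *Rptor* fl/fl libraries and wide in SCe, and did not overlap.

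*Olfm4* was at 4313, 4666 and 4460 CPM in the libraries labelled *Rptor* fl/fl against 415, 850 and 1158 CPM in SCe (2.47 ± 0.34, adjusted p = 0.00288). *Smoc2* was at 285, 283 and 270 CPM against 602, 1031 and 975 CPM (−1.64 ± 0.23, adjusted p = 0.00288). *Prom1* was at 282, 270 and 308 CPM against 434, 370 and 505 CPM, a decrease of −0.61 ± 0.18 near the threshold (adjusted p = 0.0488). Each of these groups stood wholly on its own side in CPM. The call of *Prom1* was lost with no filter on low counts (−0.57, adjusted p = 0.0739) and with an offset for effective length (−0.54, adjusted p = 0.0813), and its length-scaled levels overlapped, at 138 to 165 in the libraries labelled *Rptor* fl/fl and 133 to 230 in SCe.

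*Mex3a* was sparse, with 26 to 33 footprints where the label is *Rptor* fl/fl and 11 to 59 in SCe, or 5.47, 4.12 and 3.65 CPM against 5.96, 15.4 and 13.6 CPM (−1.40 ± 0.41, adjusted p = 0.0492, or 0.0565 with the offset for effective length). *Ascl2* (54.4, 45.0 and 47.3 against 29.8, 46.1 and 41.1 CPM), *Cdca7* (257, 276 and 248 against 146, 279 and 232 CPM) and *Slc12a2* (1230, 1057 and 1127 against 1130, 1378 and 1587 CPM) overlapped and did not pass (adjusted p = 0.308, 0.503 and 0.372). The calls of *Lgr5*, *Olfm4*, *Smoc2*, *Tnfrsf19* and *Rgmb* held whichever library was left out. That of *Mex3a* was lost without any library other than SCe replicate 1 (adjusted p = 0.0979 to 0.184), and that of *Prom1* without each *Rptor* fl/fl library (0.162 to 0.209) or SCe replicate 3 (0.0785), while *Slc12a2* passed without SCe replicate 1 (−0.38, adjusted p = 0.0475).

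**Figure D3:**
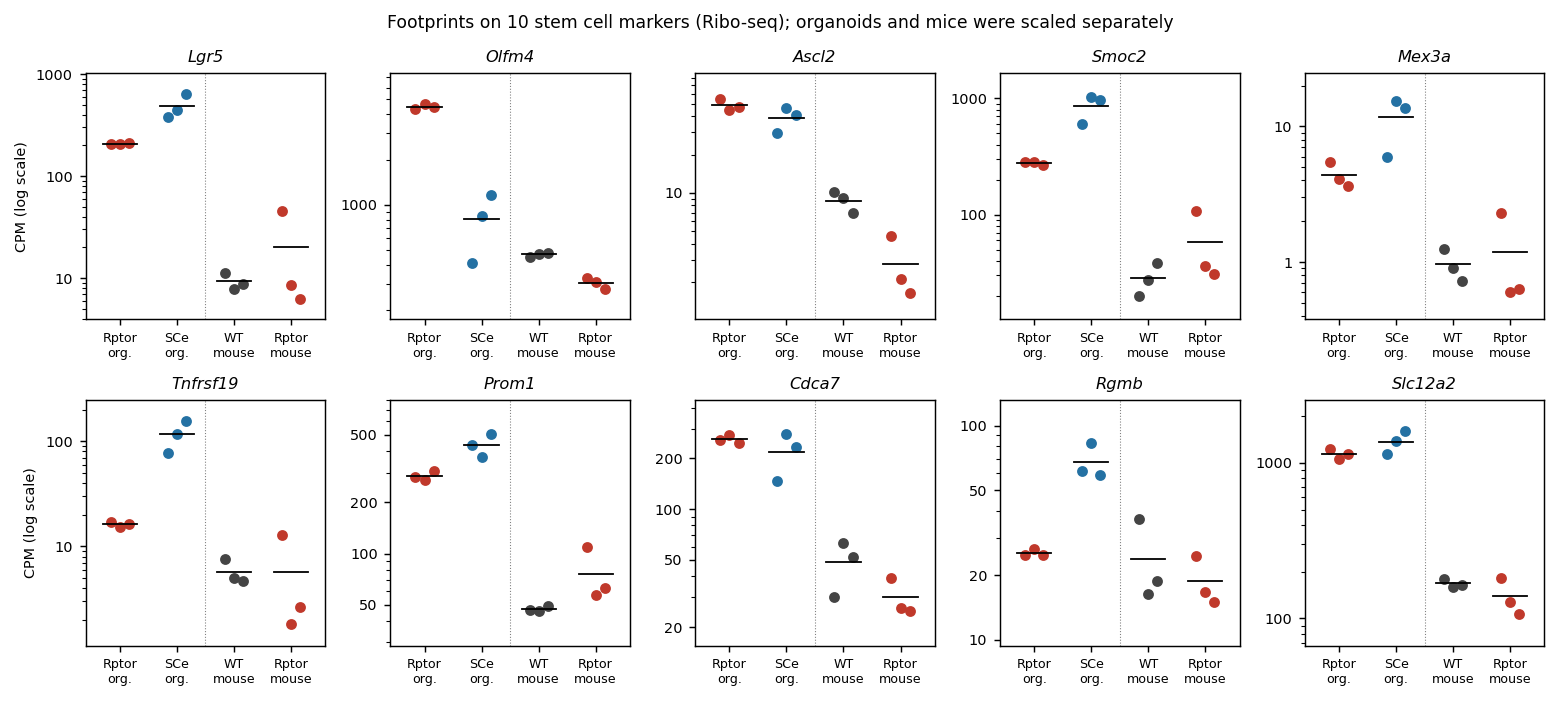
Footprints on the 10 markers in CPM on a log axis that differs between panels, 1 point per library with the mean as a bar, organoids left and mice right of the dotted line. Organoids and mice were scaled separately. *Rptor* fl/fl mouse 1 lies above the other *Rptor* fl/fl mice in all 10 panels.

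The other adult stem cell genes gave 16 lower and 1 higher of 33 tested in footprints (median −0.58), led by *Sp5* (−2.37), *Rnf43* (−1.67) and *Soat1* (−1.32), with *Zbtb38* higher (1.77). In mRNA they gave 12 lower and 2 higher of 34 (median −0.72). Among genes of R-spondin and Wnt reception, *Lef1* (−5.09), *Rnf43* and *Znrf3* (−1.57), the latter pair ubiquitin ligases that remove Wnt receptors, were lower in footprints and *Apc* was higher (0.96), with 4 lower and 1 higher of 19. The 15 proliferation genes had a median of 0.15 in footprints, and 2, *Pcna* and *Cdk1*, were lower in mRNA. Differentiated cell markers that passed in footprints were higher in *Rptor* fl/fl. They included 6 of 7 goblet, 4 of 9 enterocyte, 3 of 6 tested enteroendocrine and 3 of 8 tested Paneth cell genes. In mRNA, 7 of 7 goblet cell genes were higher, whereas 2 of 9 Paneth cell genes were lower (median −0.67). The stromal sum of footprints was 5.71 to 9.78 CPM against 143 to 809 CPM in SCe, where *Vim* alone was at 139, 234 and 806 CPM. Their part in the result was not tested.

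Translation efficiency, the interaction of assay and group, asks whether footprints changed by a different factor than mRNA. The *Rptor* fl/fl organoids lacked the tag in RNA-seq and carried it in Ribo-seq, where *Rptor* footprints did not separate the groups. For every member, a change of translation and a difference between these organoids therefore cannot be told apart. *Rptor* itself was at 1.43 (95% interval 0.57 to 2.29, adjusted p = 0.0777). No member passed by edgeR, while 2.93% of 10747 genes did. At an unadjusted p below 0.05 there were 4 members beside 2177 of the 10747 genes, and DESeq2 passed 1, *Prom1*. The member median was −0.22, beside −0.03 for all genes. *Prom1* was the nearest to the threshold (−0.83 ± 0.20, 95% interval −1.28 to −0.39, adjusted p = 0.0546). Its mRNA was higher and its footprints lower in *Rptor* fl/fl than in SCe organoids, with the groups apart in CPM in each assay, although the length-scaled footprints overlapped. The values for *Tnfrsf19* (1.43 ± 0.60), *Lgr5* (0.95 ± 0.37), *Ascl2* (−0.76 ± 0.34) and *Olfm4* (−1.33 ± 0.76) had wide intervals (adjusted p = 0.213, 0.185, 0.241 and 0.361), those for *Tnfrsf19* and *Olfm4* reaching from 0.11 to 2.75 and from −3.02 to 0.35. The remaining members lay between −0.84 and 0.17. Without SCe replicate 1 of the RNA-seq *Tnfrsf19* was at 0.75 and *Olfm4* at −2.0 (adjusted p = 0.232 and 0.1). *Prom1* passed in DESeq2 (−0.85, adjusted p = 3.01e-05) and without SCe replicate 1 of the RNA-seq (−0.83, adjusted p = 0.0499) or any SCe replicate of the Ribo-seq (−0.84, −0.94 and −0.71, adjusted p = 0.0282, 0.0295 and 0.0466).

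Reads of 8 members fell almost wholly on 1 annotated transcript, which took at least 88.1% of the gene's reads in every line. *Prom1* was divided between Prom1-203, with 27 exons and its start at 44101681, and Prom1-207, with 24 exons and its start at 44094768, next to the outer and the inner promoter shown above. Prom1-207 took 26.5 to 29.0% of *Prom1* reads in WT, 15.6 to 17.9% in *Rptor* fl/fl and 13.9 to 18.2% in SCe lines, so that its share was lower in both groups where *Prom1* was higher. *Tnfrsf19* was divided between Tnfrsf19-201 and Tnfrsf19-202, the latter starting at 61037950, 37 bases from the start of the promoter with the marked sequence. Tnfrsf19-202 took 52.3 to 68.5% in WT and 56.1 to 65.0% in SCe lines. In *Rptor* fl/fl its share ranged from 44.9 to 94.9%, with only 250 and 342 reads on the gene in lines 1 and 2. Shares are Salmon's estimates for overlapping transcripts and were not tested.

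Footprints on separately quantified 5′ entries of the genes, which are not counted above, made up very different parts of the members' totals. For *Rgmb* they were 33.5 to 46.5% of footprints on the gene in the 6 organoid libraries, and for *Olfm4* 0 to 0.5%. *Lgr5* had 13.3 to 16.8% in the libraries labelled *Rptor* fl/fl against 16.3, 14.2 and 5.66% in SCe. *Mex3a* had none. The shares of the groups overlapped for each of these genes.

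In mice the question was whether the same markers differed between *Rptor* fl/fl and WT, collected 24 h after tamoxifen by the study's methods. That treatment was meant to delete *Rptor* in *Lgr5*-expressing cells. *Ascl2* footprints were 3.22-fold lower in *Rptor* fl/fl than in WT mice, *Cdca7* 1.77-fold and *Olfm4* 1.54-fold lower, and *Prom1* 1.57-fold higher. Of the 9 members tested, 3 were lower and 1 higher, while 13.4% of 11515 genes passed, 5.97% lower and 7.47% higher. *Mex3a*, with 1 to 7 footprints per library, was removed by the filter on low counts. The median of the tested members was −0.19, beside −0.02 for all genes.

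The libraries held much beside stem cells. The 10 markers summed to 796 to 824 CPM in WT mice, beside 51095 to 52729 CPM for 9 enterocyte genes, 3735 to 3832 CPM for 6 immune genes and 1329 to 1474 CPM for 6 smooth muscle genes. *Lgr5* itself was at 11.3, 7.73 and 8.73 CPM in WT mice, on 9, 17 and 48 footprints. *Cd74* of immune cells was at 2553 to 2599 CPM and *Myh11* of smooth muscle at 609 to 686 CPM. Scaled to length, *Lgr5* ranked between the percentiles 25.3 and 32.7 in WT mice, among the genes with any footprint in the same library. Whole intestine was lysed before the pull-down. The part of these other cells in the results below was not tested.

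*Olfm4* was the best measured, at 454, 475 and 480 CPM in WT and 330, 309 and 279 CPM in *Rptor* fl/fl mice (−0.63 ± 0.08, adjusted p = 6.29e-05). Each group was tight, and the call held whichever mouse was left out. *Ascl2* was at 10.1, 9.09 and 6.91 CPM in WT and 4.59, 2.12 and 1.63 CPM in *Rptor* fl/fl, on 8 to 38 and 7 to 14 footprints (−1.69 ± 0.38, adjusted p = 0.00765). *Prom1* was at 46.5, 45.9 and 49.1 CPM in WT and 109, 57.3 and 62.6 CPM in *Rptor* fl/fl (0.65 ± 0.20, adjusted p = 0.0427). Mouse 1 was far above the others, and without it the value was 0.35 (adjusted p = 0.0409). The groups of *Ascl2* and *Prom1* did not overlap, whereas those of *Cdca7* did, at 30.2, 62.7 and 52.0 CPM in WT and 39.3, 25.8 and 24.8 CPM in *Rptor* fl/fl (−0.83 ± 0.20, adjusted p = 0.0128).

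*Lgr5* was at 45.6, 8.49 and 6.29 CPM in *Rptor* fl/fl mice, and only mouse 1 was above WT. The change of 1.02 ± 0.63 did not pass (adjusted p = 0.333) and turned to −0.30 without that mouse (adjusted p = 0.514). *Smoc2* was at 20.1, 27.3 and 38.7 CPM in WT and 107, 36.1 and 30.8 CPM in *Rptor* fl/fl (0.77 ± 0.39, adjusted p = 0.217), again highest in mouse 1. Without that mouse the change was 0.01 (adjusted p = 0.988), whereas with no filter on low counts it passed (0.78, adjusted p = 0.0175). *Tnfrsf19* (7.55, 5.00 and 4.73 against 12.8, 1.82 and 2.64 CPM), *Rgmb* (36.5, 16.4 and 18.9 against 24.6, 16.7 and 15.0 CPM) and *Slc12a2* (179, 160 and 164 against 182, 127 and 107 CPM) overlapped and did not pass (adjusted p = 0.987, 0.678 and 0.243). Without mouse 1 *Tnfrsf19* was at −1.12 and *Rgmb* at −0.38 (adjusted p = 0.0726 and 0.273). The 5′ regions are part of the sequences counted in mice, which bears on *Rgmb* in particular.

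Without *Rptor* fl/fl mouse 1, 5 members passed, *Slc12a2* among them (−0.51, adjusted p = 0.000911), as did 1954 genes in all, against 1547 with it. *Ascl2* was lost without *Rptor* fl/fl mouse 3 or WT mouse 2 (adjusted p = 0.0719 and 0.05), *Prom1* without any WT mouse (0.0921 to 0.152) and *Cdca7* without *Rptor* fl/fl mouse 2 or 3 or WT mouse 2 or 3 (0.0697 to 0.102), while *Smoc2* passed without *Rptor* fl/fl mouse 3 (1.14, adjusted p = 0.0416).

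Of 28 other adult stem cell genes tested in mice, 3 were higher, *Cd44* (0.84), *Fstl1* (0.73) and *Vdr* (0.30), with a median of 0.02 over the list. Among genes of Wnt reception *Ctnnb1* was higher (0.41) and *Dvl1* lower (−0.53) of 17. Of 15 proliferation genes 9 were lower (median −0.39), led by *Top2a* (−0.48) and *Mcm2* (−0.52), and 5 of 8 Paneth cell genes were lower (median −0.60), led by *Defa22* (−1.31) and *Ang4* (−1.09). Stromal genes were higher in 5 of 6 (summed 984 to 1017 CPM in WT and 1225 to 1471 CPM in *Rptor* fl/fl), goblet cell genes in 4 of 7 and enterocyte genes in 5 of 9. *Rptor* fl/fl mouse 1 also stood apart in Paneth cell genes, at 10223 CPM against 6564 and 6701 in the other *Rptor* fl/fl mice. Their part in the result was not tested.

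Levels of different markers were compared only after scaling to sequence length, as reads per kilobase scaled to the sum of such values over all genes. By mRNA in WT organoids the order was *Olfm4* (2296), *Slc12a2* (367), *Smoc2* (178), *Prom1* (167), *Cdca7* (124), *Lgr5* (77.9), *Rgmb* (56.7), *Ascl2* (21.9), *Tnfrsf19* (12.3) and *Mex3a* (6.06). Of neighbours in that order, *Smoc2* and *Prom1* alone overlapped between lines. In *Rptor* fl/fl organoids *Olfm4* stayed first (738) and *Tnfrsf19* came last (2.87), with *Slc12a2* and *Prom1*, and *Rgmb* and *Lgr5*, overlapping.

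In SCe organoids the order was another. *Slc12a2* (410), *Smoc2* (355) and *Prom1* (248) came first, with *Smoc2* overlapping both of the others, and *Olfm4* was the eighth (50.7), its range overlapping that of *Rgmb* (51.4). Between them lay *Lgr5* (99.6), *Cdca7* (66.6) and *Tnfrsf19* (53.8), whose ranges overlapped. In footprints *Olfm4* led in the libraries labelled *Rptor* fl/fl (2535) and in WT (351) and *Rptor* fl/fl mice (223), and *Mex3a* came last in each footprint group.

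**Figure D4:**
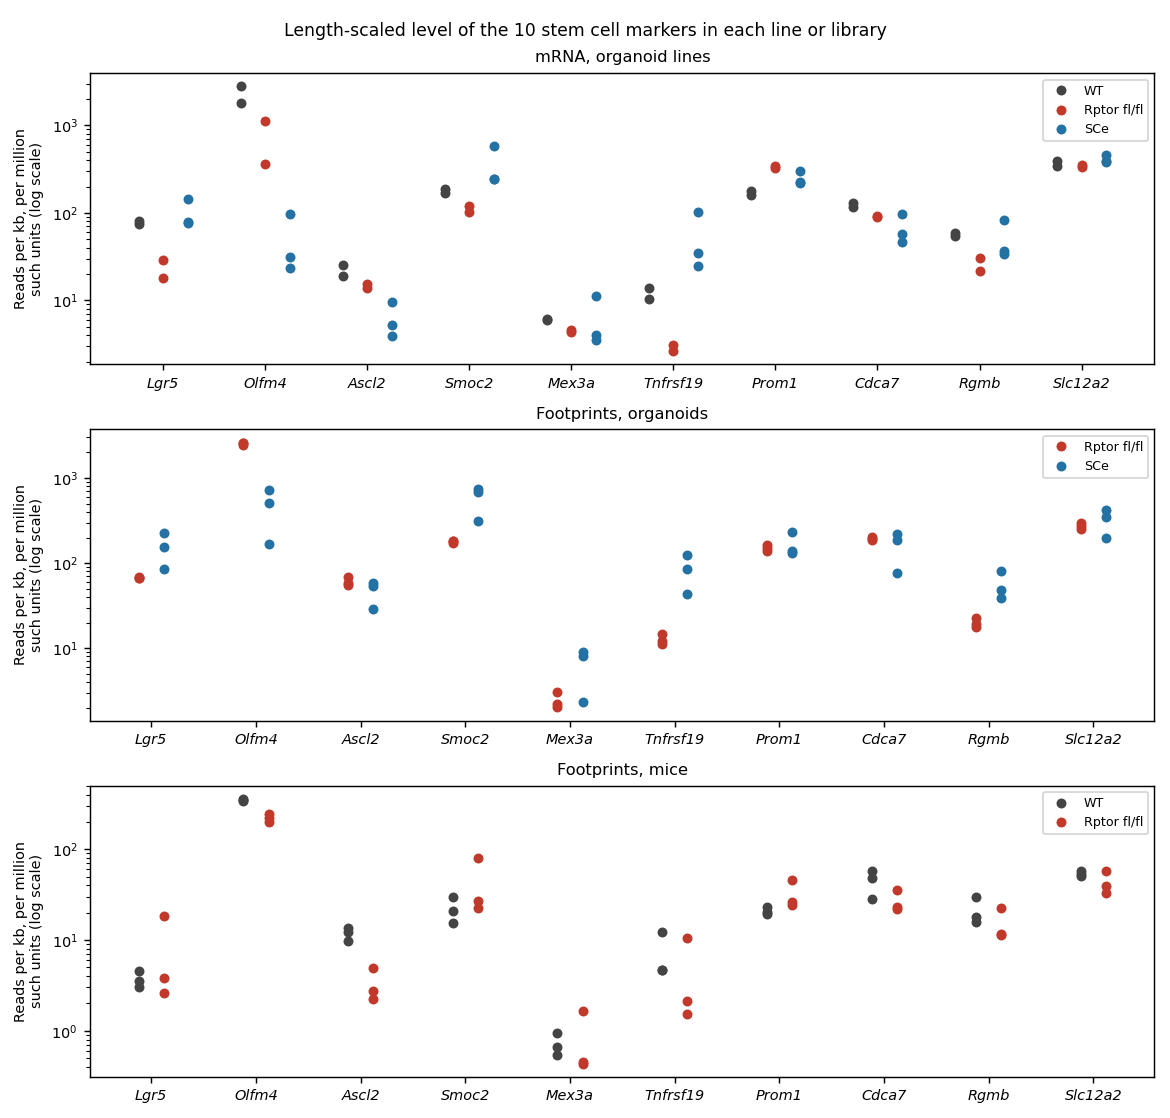
Length-scaled level (log y axis) of each marker (x axis) in every line or library, by group and data set. *Olfm4* is at 1810 and 2783 in the WT lines and 23.6 to 97.5 in SCe, and *Mex3a* is the lowest in footprints.

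Genes with the pattern most like that of *Lgr5* over the 7 RNA-seq lines were sought by the root-mean-square difference of log2 CPM, each gene centred on its own mean. Over 13904 genes that are not members the median difference from *Lgr5* was 1.01. The closest were *Fstl4* (0.114), *Plekhd1* (0.14), *Msi1* (0.212), *Cd244a* (0.213) and *Dach1* (0.226). *Msi1*, an RNA-binding protein of stem and progenitor cells, was at 26.5 to 29.5 CPM in WT, 7.51 to 13.5 CPM in *Rptor* fl/fl and 40.6 to 65.7 CPM in SCe. Among members *Smoc2* (0.429) and *Rgmb* (0.527) were closest to *Lgr5*, and *Olfm4* was farthest (2.99).

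*Olfm4* had no close match. The median difference from it was 2.55, and the closest genes were *Anxa10* (0.783), *Slc13a1* (0.965), *Ccl6* (0.973), *Gm9008* (0.98) and *Tph1* (1.00). *Anxa10*, an annexin, was at 145 to 192 CPM in WT, 132 to 167 CPM in *Rptor* fl/fl and 4.37 to 9.46 CPM in SCe. *Ascl2* was the member closest to *Olfm4* (1.81).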

How the data were processed

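Small intestinal organoids were profiled by RNA-seq and Ribo-seq, and mouse small intestine by Ribo-seq. The authors trimmed reads with cutadapt 1.18 and quantified them with Salmon 1.1.0 on GENCODE vM21 (mm10), and the values used are the deposited estimated counts per transcript. These were summed per gene and rounded. Technical RNA-seq libraries were summed per organoid line. Organoid Ribo-seq was quantified on coding sequences with separate 5′ entries, which were left out, whereas most in vivo sequences keep the 5′ region. The deposited TPM values were not used. A table of the authors' own translation efficiency comparison, with fold changes and p-values, was not used either.

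Genes were filtered with filterByExpr, scaled by TMM and tested with edgeR 4.0.16 (quasi-likelihood, Benjamini-Hochberg, 0.05) in R 4.3.3. The fit for translation efficiency tested whether the group difference depended on the assay. DESeq2 1.42.0, other scaling and filters, a replicate block and leaving out each replicate were alternatives. On simulated counts edgeR recovered 75% of 2-fold changes for SCe against WT (14725 genes), 58% for *Rptor* fl/fl against WT organoids (14666 genes), and, for *Rptor* fl/fl against SCe, 75% in RNA-seq (14868 genes), 88% in Ribo-seq (10904 genes) and 36% in translation efficiency (10833 genes), with 78% in mice (11516 genes). The simulation gave every gene the same dispersion between replicates and changed only genes with enough reads. These shares therefore do not give the power for widely spread or sparse members. Every member was named, with the 5 nearest patterns of *Lgr5* and *Olfm4*. From each list, fold changes were given for at most the 4 genes of smallest p among those passing. Members and lists were chosen with earlier results of these data known.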

Additional observations from a re-analysis of the deposited data

Results flagged for a closer look

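*Prom1*, the CD133 membrane protein, was flagged because its mRNA and its footprints moved in opposite directions between *Rptor* fl/fl and SCe organoids. The mRNA was higher in *Rptor* fl/fl by 0.28 on the log2 scale, with both lines above all SCe replicates in CPM. That call was lost with the replicate block (0.27, adjusted p = 0.183) and in 4 of 5 fits that left out a line (adjusted p = 0.106 to 0.152). Footprints were at −0.61, with all 3 libraries labelled *Rptor* fl/fl below all SCe libraries in CPM, but length-scaled levels overlapped, at 138 to 165 against 133 to 230. The footprint call was lost with no filter on low counts (−0.57, adjusted p = 0.0739), an offset for effective length (−0.54, adjusted p = 0.0813) and the replicate block (−0.60, adjusted p = 0.103), and in 4 of 6 fits that left out a library (adjusted p = 0.0785 to 0.209). The test of the difference itself, the interaction of assay and group in edgeR, gave −0.83 and did not pass over all genes (adjusted p = 0.0546). RNA-seq *Rptor* fl/fl organoids lacked the RPL22.HA tag that the Ribo-seq ones carried, so the tag and the assay cannot be told apart.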

How the results depend on the processing

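Over all alternatives, 729 values of single members were recomputed, of which 625 kept direction and side of the threshold, 68 lost the call, 25 gained it and 11 changed sign. Those counted as kept include *Mex3a* in SCe against WT, whose main value was −0.0 after rounding. Its values lay on either side, at −0.01 in DESeq2 and 0.23 without SCe replicate 2. Leaving out 1 replicate at a time gave 1 to 8 members and 2027 to 9530 genes in SCe against WT, 5 to 7 members and 939 to 2126 genes in *Rptor* fl/fl against WT organoids, and 1 to 9 members and 2509 to 9101 genes in *Rptor* fl/fl against SCe mRNA. It gave 5 to 8 members and 669 to 2682 genes in footprints, 0 to 1 members and 25 to 951 genes in translation efficiency, and 1 to 5 members and 897 to 1954 genes in mice.

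Same-numbered samples did not establish a pairing: same-numbered WT and *Rptor* fl/fl lines deviated together (r = 0.442 across genes), but there are 2 pairs, of different genotypes. With 2 lines a group, r is the same for both pairs by construction. In RNA-seq r was 0.289 and 0.268 for SCe with WT and 0.418 and 0.407 for *Rptor* fl/fl with SCe. It ran from −0.109 to 0.108 in organoid Ribo-seq and from −0.0843 to 0.00709 in mice. The study's methods mention paired samples induced in vitro but tie no numbers to them. The replicate block gave 3154 genes in SCe against WT, 3 members and 3413 genes in *Rptor* fl/fl against SCe mRNA, and 4 genes in translation efficiency, and with it *Olfm4* passed in *Rptor* fl/fl against WT (−1.93, adjusted p = 0.00511). Technical libraries kept separate gave 7208 genes in *Rptor* fl/fl against WT and 1 member and 1312 genes in translation efficiency, and 1 fit of the 3 RNA-seq groups gave 2 members and 1639 genes in *Rptor* fl/fl against WT. In translation efficiency DESeq2 gave 1 member and 1205 genes, and RLE scaling 1 member.

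Signs changed for *Mex3a* in *Rptor* fl/fl against SCe mRNA (0.02 without SCe replicate 1, lowest −0.75), and in translation efficiency for *Smoc2* (−0.20 and −0.05 without SCe replicate 1 of either assay, highest 0.32) and *Cdca7* (0.08 and 0.14 without SCe replicate 2 of either assay, lowest −0.29). In mice they changed for *Lgr5* (−0.30 without *Rptor* fl/fl mouse 1, highest 1.6), *Tnfrsf19* (0.02 by DESeq2, and 0.34, 0.47 and 0.09 without *Rptor* fl/fl mouse 2, mouse 3 or WT mouse 1, lowest −1.12) and *Rgmb* (0.01 without WT mouse 1, lowest −0.38). Main values of all these were not past the threshold, and the cause was not tested. Depth limits *Mex3a*, *Tnfrsf19*, *Ascl2* and *Lgr5* in mice.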
